A study of Mus musculus with 6 samples.

Results

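The extracellular matrix genes described here are the collagens, the laminin chains and a set of matrix proteoglycans, glycoproteins and proteinase inhibitors, compared between adrenal glands of the BPH and BPL mouse strains. Members were the probe sets whose only gene symbol was that of a collagen or laminin chain, or was Bgn, Dcn, Lum, Fmod, Fn1, Sparc, Fbn1, Nid1, Hspg2, Eln, Timp1, Timp2 or Timp3. This gave 52 of 8251 named genes, with 76 of the 12422 probe sets that were not controls: 31 collagen genes with 44 probe sets, 9 laminin genes with 14 and 12 of the 13 genes named singly with 18. Fbn1 was not analysed here, as no probe set carried its symbol alone. Both strains were represented by males of 12 weeks, BPH being labelled hypertensive and BPL hypotensive, with 3 arrays each. No treatment or engineered allele is given for either strain, and total RNA of whole adrenal glands was hybridised. Nothing in the labels ties an array to a single animal, so p-values reflect only the spread between these arrays, which may be technical.

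Collagens are triple-helical proteins. The fibrillar types form the tensile fibres of connective tissue, whereas type IV assembles into the sheet of basement membranes together with laminin trimers, nidogen and the heparan sulphate proteoglycan perlecan. Small leucine-rich proteoglycans such as biglycan, decorin and lumican bind collagen fibrils and influence their assembly, and tissue inhibitors of metalloproteinases limit the turnover of matrix. In the adrenal gland, matrix forms part of the capsule and surrounds the sinusoids and the cords of cortical cells.

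Values are MAS5 signals, a summary of the probes of a probe set on a linear scale, after each array was scaled to a common median. Of the 76 member probe sets, 46 (for 37 genes) were bright enough to be tested, and 30 were among the 40% with the lowest mean over the 6 arrays. A difference is given as BPH minus BPL on the scale of log2(signal + 203), which understates changes of dim genes, and a probe set was called at a limma adjusted p under 0.05 over all 7453 probe sets tested. Signals of different probe sets are not comparable as levels. Array correlations (Pearson's r, across tested probe sets) ran from 0.957 to 0.969 within BPH, from 0.929 to 0.946 within BPL and from 0.869 to 0.943 between strains. The cortical gene Star (signals of 75933 to 105639 on its brighter probe set) and the medullary gene Th (12088 to 47889) were bright on all 6 arrays. So were the fat genes Adipoq (55999 to 74162) and Ucp1 (27117 to 64979 on its brighter probe set). Skeletal muscle markers set BPL apart: the 12 markers summed to signals of 147073, 355137 and 26607 in BPL and of 4402 to 5627 in BPH. Where 3 signals are given for a strain, here and below, they follow the order of replicates 1, 2 and 3.

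Biglycan was the only member called, and it was higher in BPH. Of the 46 tested member probe sets 1 passed (2.17%), against 306 of all 7453 tested (4.11%), of which 237 higher (3.18%) and 69 lower (0.926%) in BPH. The members' differences ran from -0.63 for Lum to 0.96 for Bgn, with 26 positive and 20 negative and a median of 0.11, against a median of 0.08 over all tested probe sets. With the authors' scaling, after quantile normalization and after centring, the members' median was 0.01, 0.02 and 0.02 and that of all tested probe sets -0.02, 0.00 and -0.01, so the members' small positive median moved with the scaling. At an unadjusted p under 0.05 there were 12 members, 9 higher and 3 lower, which is 26.1% against 20.6% of all tested probe sets. All BPH arrays lay above all BPL arrays for 13 members (19.7% of all tested probe sets) and below them for 4 (7.97%), 37.0% of the members against 27.6% of all tested. The 95% interval of the difference lay inside a 2-fold change for 41 of the 46, so that larger strain differences were outside the intervals of most members. The 5 whose interval reached 2-fold were Bgn, Lum, Sparc, Lama1 and 1 probe set of Lama5.

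**Figure D1:**
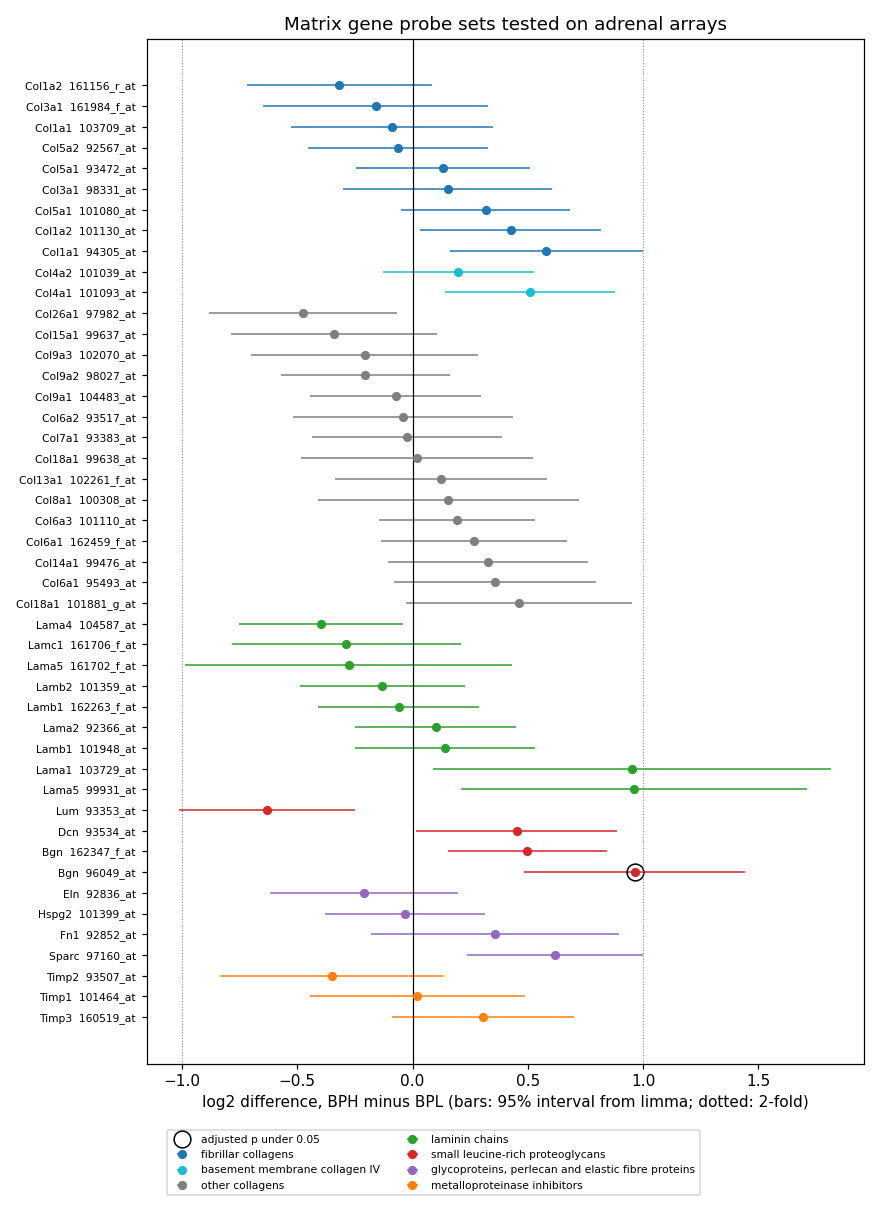
Log2 difference (BPH minus BPL) of each of the 46 tested member probe sets, grouped by role, with 95% intervals from limma. Dotted lines mark 2-fold, and the ring marks the single called probe set, Bgn 96049_at at 0.96. Lum lies lowest at -0.63, and most intervals include 0.

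The 4 tested probe sets of small leucine-rich proteoglycans, for 3 genes, separated the strains without overlap, as 27.6% of all tested probe sets did. Of these, 3 were higher in BPH, with both Bgn probe sets among them, and 1 was lower. The median of the role was 0.47, which became 0.36 with the authors' scaling, 0.33 after quantile normalization and 0.38 after centring. With no filter, where the dim Fmod probe sets entered, it was 0.07. Bgn encodes biglycan, a proteoglycan of the pericellular matrix. Its probe set 96049_at had signals of 7737, 10262 and 11418 in BPL and of 19706, 22778 and 15439 in BPH. Every BPH array was above every BPL array, and the mean signal was 1.97 times as high. BPL had a mean of 9806 ± 1882 and BPH one of 19308 ± 3685 (SD, n = 3). The log2 difference was 0.96 ± 0.21 (SE from limma, adjusted p = 0.042), with a 95% interval of 0.49 to 1.44. A second Bgn probe set, 162347_f_at, had 4256, 4914 and 5292 in BPL against 6783, 6721 and 7083 in BPH. It also separated the strains, with a difference of 0.50 ± 0.15, but did not pass (limma adjusted p = 0.12).

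The Bgn call was close to the threshold. Leaving out BPL replicate 1 (difference 0.81, limma adjusted p = 0.10) or BPL replicate 2 (1.0, 0.092) ended it. So did leaving out BPH replicate 1 (0.94, limma adjusted p = 0.13) or BPH replicate 2 (0.84, 0.17), and leaving out both BPL arrays with most muscle signal, replicates 1 and 2 (0.73, 0.40). A lower pseudocount (limma adjusted p = 0.055), a floor in its place (0.061) and no filter on dim probe sets (0.11) ended it too. Over 17 alternative settings the difference stayed between 0.73 and 1.11, and 8 of them called it.

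The summed signal of 9 fibroblast and pericyte markers was 8198 to 9712 in BPL and 10763 to 11614 in BPH, without overlap. None of these markers was at 0, 7 of the 9 were tested and 0 passed the limma test (2 had an unadjusted p under 0.05). Pdgfra, Pdgfrb, Cd34 and Tcf21 had BPH over BPL ratios of mean signals of 1.25, 0.946, 1.0 and 0.861, with overlapping groups. Thy1 had a ratio of 2.30 (limma adjusted p = 0.089), Rgs5 one of 1.80 (0.14) and S100a4 one of 1.29 (0.27), each without overlap. The 10 endothelial markers, none at 0, summed to 22917 to 33867 in BPL and 35157 to 38855 in BPH. Their mean log2 signal overlapped, however, at 10.91, 11.37 and 11.36 in BPL and 11.26, 11.41 and 11.31 in BPH, and 0 of the 9 tested passed with limma (3 had an unadjusted p under 0.05). Among them Eng had a BPH over BPL ratio of 1.63 and Tie1 one of 0.577, each without overlap. The 8 medullary markers, none at 0, summed to 147577 to 230600 in BPL and 239628 to 307863 in BPH. All 7 tested had positive differences, 5 of them with an unadjusted limma p under 0.05. The 3 that passed were Uchl1 (1.20, limma adjusted p = 0.0088), Th (1.28, 0.023) and Scg2 (0.84, 0.048). Of the 4 tested smooth muscle markers 3 had positive differences and 1 passed, Tagln (0.93, limma adjusted p = 0.035). Des was lower in BPH (-0.99, limma adjusted p = 0.17) with overlapping groups, and the sum of all 6 overlapped between strains. The sums of the 6 fat, 8 cortical and 9 macrophage markers overlapped between strains. Of the 6 fat markers 3 had positive and 3 negative differences, and 0 passed with limma (3 had an unadjusted p under 0.05). Ucp1 had -0.84, Fabp4 -0.39 and Retn 0.99, each without overlap, and Cidea had -0.63 with overlapping groups. All 8 cortical markers had positive differences, and 1 passed, Mrap (0.92, limma adjusted p = 0.020). Of the 7 tested macrophage markers 5 were positive and 0 passed with limma (3 had an unadjusted p under 0.05). For the Gapdh controls, the 3′ signal over the 5′ signal was, in log2, -0.03, 0.06 and -0.03 in BPL and 0.08, 0.21 and 0.21 in BPH. That of the Actb controls was 0.88, 0.79 and 0.90 in BPL and 1.05, 0.94 and 1.25 in BPH, also without overlap. The part of these differences in the matrix results was not tested, and in whole glands fewer cells of a type and less RNA per cell cannot be told apart.

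**Figure D2:**
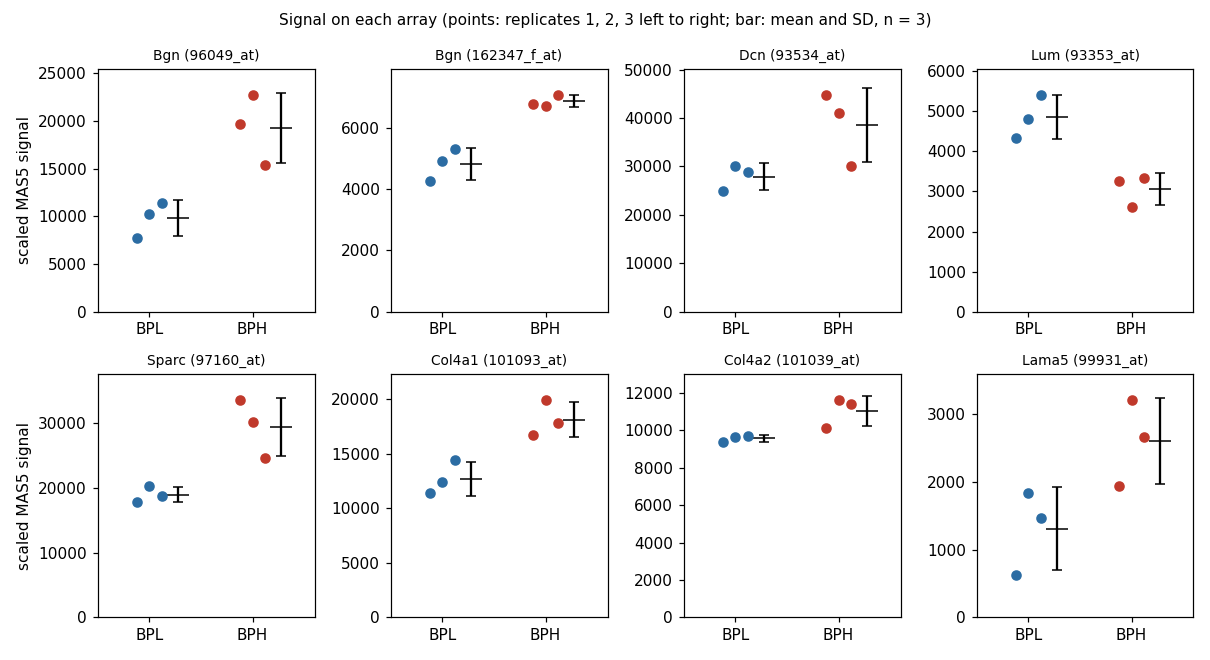
Scaled MAS5 signal of 8 member probe sets on each array (points; BPL blue, BPH red), with the mean and SD of 3 arrays beside them and axes from 0. BPH points lie above all BPL points for both Bgn probe sets, Dcn, Sparc, Col4a1, Col4a2 and Lama5 99931_at, and below them for Lum. The other tested Lama5 probe set, whose groups overlapped, is not drawn.

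Decorin and lumican lay on opposite sides. Dcn, a proteoglycan that binds collagen fibrils and TGF-beta, had signals of 24814, 30051 and 28792 in BPL and of 44828, 40939 and 30078 in BPH. The groups were separated only by the gap between 30051 and 30078, and the difference of 0.45 ± 0.19 did not pass (limma adjusted p = 0.23). Lum, the keratan sulphate proteoglycan lumican, had 4347, 4816 and 5419 in BPL and 3265, 2608 and 3338 in BPH. All BPH arrays were lower, with a mean signal 0.632 times that of BPL. The difference, -0.63 ± 0.17, was short of the threshold (limma adjusted p = 0.081). It passed with the authors' scaling (-0.74, limma adjusted p = 0.047), after quantile normalization (-0.74, 0.044) and after centring (-0.73, 0.048). The stricter filter (-0.63, limma adjusted p = 0.035) and a trended and robust variance (-0.63, 0.037) also called it. These were 5 of the 17 alternative settings, over which the difference stayed between -0.79 and -0.53. It did not pass with no filter (limma adjusted p = 0.17) or without BPL replicate 1 (0.10).

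Dcn and Lum are neighbours in the gene table, with no protein-coding gene between them on chromosome 10. The log2 signal of Dcn minus that of Lum on the same array was 2.46, 2.59 and 2.37 in BPL and 3.70, 3.87 and 3.10 in BPH. This within-array quantity was higher by 1.08 in BPH, with no overlap (exact permutation, 2-sided, p = 0.1, adjusted p = 0.13 over the 4 pairs compared). With 3 arrays in each group, 0.1 is the lowest p this test can give, here and below. The pairs were chosen after their values were seen, so these p-values only describe the values and add no support. Another of the 4, Bgn minus Lum, was higher by 1.59 in BPH, also with no overlap. Both probe sets of Fmod, fibromodulin, were too dim to be tested, at 119 to 405.

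Of the glycoproteins, perlecan and elastic fibre proteins none passed. Sparc, a collagen-binding glycoprotein also called osteonectin, had signals of 17859, 20243 and 18809 in BPL and of 33530, 30148 and 24616 in BPH. All 3 BPH arrays were higher, with a mean signal 1.55 times that of BPL. The difference was 0.62 ± 0.17 (limma adjusted p = 0.086). It passed with a trended and robust variance (limma adjusted p = 0.043) and with a stricter filter (0.038), 2 of the 17 alternative settings. Over these it stayed between 0.47 and 0.74, and with no filter its limma adjusted p was 0.18. Fn1, fibronectin, the ligand of several integrins, had 1174 to 1379 in BPL and 1314, 2586 and 1462 in BPH, so that BPH replicate 2 stood high and the groups overlapped (0.36 ± 0.24, limma adjusted p = 0.42). Hspg2, the perlecan core protein, was nearly level, 4872 ± 260 in BPL against 4774 ± 514 in BPH (SD, n = 3), and its difference had a 95% interval of -0.38 to 0.32. Eln, elastin, had 2203, 3205 and 2567 in BPL and 2253, 2478 and 2018 in BPH on its tested probe set. These groups overlapped (-0.21 ± 0.18, limma adjusted p = 0.53). The only Nid1 probe set, for nidogen, was too dim to be tested.

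The sequences before the annotated starts of Bgn and Sparc are shown because these genes had the largest positive differences among the bright members outside the laminins. They are the 250 bases upstream of the start in RefSeq on GRCm38.p6, at chrX:73483351-73483600 on the + strand for Bgn and chr11:55420081-55420330 on the - strand for Sparc, written 5′ to 3′ with motif matches in capitals.
Bgn: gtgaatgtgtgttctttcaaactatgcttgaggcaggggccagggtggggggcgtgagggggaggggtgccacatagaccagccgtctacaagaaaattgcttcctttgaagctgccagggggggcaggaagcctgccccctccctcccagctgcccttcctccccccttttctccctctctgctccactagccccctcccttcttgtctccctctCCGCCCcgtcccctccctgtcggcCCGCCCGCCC
Sparc: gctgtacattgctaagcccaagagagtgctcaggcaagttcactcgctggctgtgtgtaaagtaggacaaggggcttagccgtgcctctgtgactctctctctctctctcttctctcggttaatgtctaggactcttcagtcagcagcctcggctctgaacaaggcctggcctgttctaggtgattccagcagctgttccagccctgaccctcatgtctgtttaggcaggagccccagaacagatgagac
Both strands were searched for the TATA box (TATAAA), the GC box (GGGCGG), the CCAAT box and the AP-1 site (TGANTCA). The Bgn sequence held 3 matches to the GC box, all on the opposite strand and the last 2 overlapping, and no match to the others. The Sparc sequence held no match to any of the 4. The GC box was found in 32.7% of all 32851 upstream sequences of this length in the table, the CCAAT box in 33.8%, the TATA box in 12.4% and the AP-1 site in 6.75%. G and C made up 64.4% of the Bgn sequence and 54.0% of that of Sparc, against a median of 52.4% over the table. These matches describe the letters only.

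Basement membrane collagen was represented by Col4a1 and Col4a2, the chains of the most widespread type IV trimer, and neither passed. Col4a1 had signals of 11361, 12361 and 14419 in BPL and of 16692, 19883 and 17814 in BPH, with no overlap and a difference of 0.51 ± 0.16 (limma adjusted p = 0.13), or 0.32 without BPL replicates 1 and 2. Col4a2 had 9362, 9616 and 9694 in BPL and 10095, 11588 and 11378 in BPH, also with no overlap, and a difference of 0.20 ± 0.14 (limma adjusted p = 0.46). The pair is transcribed in opposite directions from starts 21 bases apart in RefSeq, and their 300-base promoter windows share 78 bases. The within-array log2 signal of Col4a1 minus Col4a2 was 0.27, 0.36 and 0.56 in BPL and 0.71, 0.77 and 0.64 in BPH, higher by 0.31 in BPH (exact permutation, 2-sided, p = 0.1, adjusted p = 0.13). The single probe sets of Col4a3, Col4a4 and Col4a5, chains of more restricted basement membranes, were too dim to be tested.

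No laminin chain passed, and 4 of the 9 tested probe sets had positive differences (median -0.06). Lama5, the alpha chain of many mature basement membranes, had on probe set 99931_at 633, 1837 and 1467 in BPL and 1947, 3206 and 2671 in BPH. BPL replicate 1 was far below the other arrays, and the difference was 0.96 ± 0.33 (limma adjusted p = 0.15), or 0.58 without that array. The other Lama5 probe set, 161702_f_at, had -0.28 ± 0.31 and overlapping groups. Lama1, the alpha chain of early embryonic basement membranes, had 989, 973 and 301 in BPL and 2423, 1117 and 1270 in BPH, a difference of 0.95 ± 0.38 (limma adjusted p = 0.21). Here BPL replicate 3 was low and BPH replicate 1 high, and the interval of 0.09 to 1.81 was the widest among the members.

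Lama4, the alpha chain typical of vessel walls and also made by muscle and fat, was lower in all BPH arrays. Its signals were 2780, 2891 and 2385 in BPL and 2103, 1765 and 2102 in BPH, and the difference of -0.40 ± 0.16 did not pass (limma adjusted p = 0.20). It was -0.24 without BPL replicates 1 and 2. Lama2, the alpha chain of muscle and nerve basement membranes, had 2240 ± 273 in BPL against 2404 ± 85.4 in BPH (SD, n = 3). The skeletal muscle marker sum was higher on every BPL array than on every BPH array. Its part in the laminin values was not tested. The shared chains Lamb1, Lamb2 and Lamc1 had differences from -0.29 to 0.14 with overlapping groups on each tested probe set. Lama3 and Lamb3, chains of epithelial laminin, were too dim to be tested.

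None of the 9 fibrillar collagen probe sets passed, and the probe sets of type I collagen disagreed with each other. Col1a1 and Col1a2 encode the chains of type I collagen, the main collagen of fibrous tissue. For Col1a1, probe set 94305_at had 1453, 1812 and 1429 in BPL and 2505, 2883 and 1976 in BPH, a difference of 0.58 ± 0.18 (limma adjusted p = 0.13). Its other probe set, 103709_at, had 3428, 3926 and 2425 in BPL and 3068, 3045 and 2881 in BPH, overlapping, with a difference of -0.09 ± 0.19. For Col1a2, probe set 101130_at had 2433, 2088 and 1767 in BPL and 2854, 2546 and 3227 in BPH, all higher in BPH (0.43 ± 0.17, limma adjusted p = 0.21). Its probe set 161156_r_at had 12560, 9754 and 8702 in BPL and 7779, 8194 and 8527 in BPH, all lower in BPH (-0.32 ± 0.17, limma adjusted p = 0.34). Without BPL replicate 1 this difference was -0.17. The 2 Col1a2 probe sets thus separated the strains in opposite directions.

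The type III chain Col3a1, which forms fine reticular fibres, had 0.15 ± 0.20 and -0.16 ± 0.21 on its tested probe sets. The type V chains, which start fibril assembly, had 0.32 ± 0.16 and 0.13 ± 0.17 for Col5a1 and -0.06 ± 0.17 for Col5a2, a neighbour of Col3a1 in the gene table. The role had a median of 0.13, which became 0.02 under the authors' scaling and -0.01 without BPH replicate 1.

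Of the 9 genes with 2 tested probe sets, 5 had differences of opposite sign: Lama5, Col1a2, Col1a1, Col3a1 and Lamb1. Bgn, Col18a1, Col5a1 and Col6a1 had the same sign on both. The median gap between a gene's probe sets was 0.44, and for 3 of the 9 the within-array difference between probe sets did not overlap between strains: Col1a2, Col1a1 and Bgn (exact permutation, 2-sided, p = 0.1 for each, adjusted p = 0.3 over 9 pairs). In this array's naming, an _f_at probe set may match a family of related sequences and an _r_at probe set was chosen with relaxed rules. Suffixed probe sets were the lower of the pair for Lama5, Col1a2, Bgn, Col3a1, Lamb1 and Col6a1, and the higher for Col18a1. Which probe set follows the gene was not tested.

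**Figure D3:**
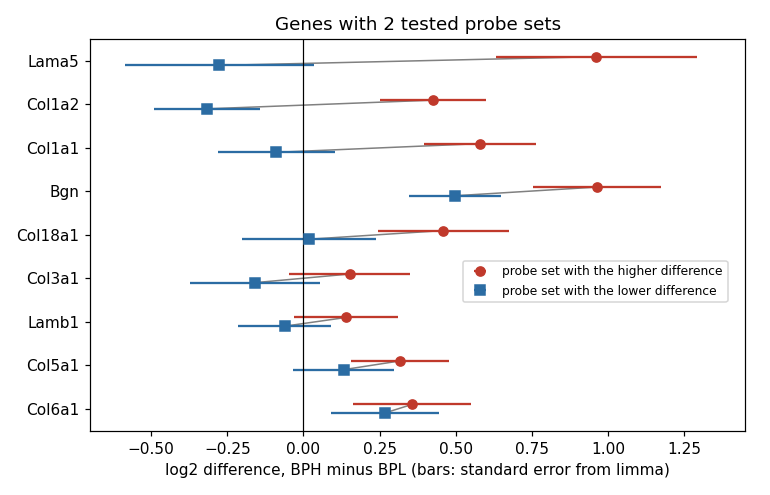
Log2 difference (BPH minus BPL) of both tested probe sets of 9 member genes, with standard errors from limma. The lines joining the points cross 0 for Lama5, Col1a2, Col1a1, Col3a1 and Lamb1, and the Bgn pair lies at 0.96 and 0.50.

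Among the other collagens 0 of 15 tested probe sets passed with limma (1 had an unadjusted p under 0.05), and their median of 0.02 became -0.09 with the authors' scaling, -0.06 after quantile normalization and -0.08 after centring. The beaded-filament chains of type VI collagen, abundant around cells and in fat, had 0.36 ± 0.19 and 0.27 ± 0.18 for Col6a1, -0.04 ± 0.21 for Col6a2 and 0.19 ± 0.15 for Col6a3. Col6a1 and Col6a2 adjoin each other in the gene table, and the within-array difference between them did not separate the strains (exact permutation, 2-sided, p = 0.2). Col26a1 had the largest negative difference of this role. Its signals were 1662, 1059 and 1242 in BPL and 855, 872 and 912 in BPH, all lower in BPH (-0.47 ± 0.18, limma adjusted p = 0.19). Col18a1, whose C-terminal fragment is endostatin, had 619, 848 and 1190 in BPL and 1078, 1385 and 1335 in BPH on probe set 101881_g_at. The difference was 0.46 ± 0.21 (limma adjusted p = 0.27), or 0.28 without BPL replicate 1. On the other tested probe set it was 0.02 ± 0.22. The basement membrane relative of Col18a1, Col15a1, had -0.34 ± 0.20, with overlapping groups. The cartilage-type chains Col9a1, Col9a2 and Col9a3 had -0.07, -0.21 and -0.21, and Col7a1, Col8a1, Col13a1 and Col14a1 had -0.02 to 0.33. The groups of all of these overlapped.

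The inhibitors of metalloproteinases did not pass either. Timp1 had 7607 ± 1131 in BPL against 7781 ± 1644 in BPH (SD, n = 3). Its difference was 0.02, with a 95% interval of -0.45 to 0.49. Timp2, which also takes part in activating Mmp2, had 2539, 1876 and 2017 in BPL and 1793, 2011 and 1181 in BPH (-0.35 ± 0.21, limma adjusted p = 0.38, or -0.15 without BPH replicate 3). Timp3, the inhibitor that stays bound to matrix, had 22687, 28154 and 32425 in BPL and 35986, 33060 and 32964 in BPH. These groups were separated by a narrow gap (0.30 ± 0.17, limma adjusted p = 0.35). The difference was 0.17 without BPL replicate 1, 0.19 under the authors' scaling and 0.15 after quantile normalization. The role's median of 0.02 became -0.09 with the authors' scaling.

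Of 95 measured genes that make, cut, bind or regulate matrix, in 5 lists, 61 were tested and 2 passed, both higher in BPH. Over all 7453 tested probe sets 306 passed (4.11%). Among 12 tested genes of collagen folding, crosslinking and processing 1 passed (median 0.24). This was P4ha1, a catalytic subunit of prolyl 4-hydroxylase, which hydroxylates procollagen. It had 888, 1334 and 1427 in BPL and 5810, 4038 and 2632 in BPH, and rose by 1.57 ± 0.28 (limma adjusted p = 0.022). Its mean signal was 3.42 times as high. Leaving out BPL replicate 1 (1.40, limma adjusted p = 0.071), BPH replicate 1 (1.31, 0.065) or BPH replicate 2 (1.56, 0.093) ended the call, as did leaving out BPL replicates 1 and 2 at once (1.36, 0.25) or using no filter (limma adjusted p = 0.063). The related subunit P4ha2 had 0.42 ± 0.16 (limma adjusted p = 0.19). Serpinh1, the collagen chaperone Hsp47, had 8501, 8637 and 10035 in BPL and 11827, 12415 and 7544 in BPH. These groups overlapped (0.19 ± 0.21, limma adjusted p = 0.64).

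Among 6 tested matrix proteases Plat passed (median 0.15). Plat encodes tissue plasminogen activator, which is also a product of chromaffin cells, and had 1770, 2389 and 1870 in BPL and 3521, 4523 and 3645 in BPH. It rose by 0.89 ± 0.18 (limma adjusted p = 0.030), with all BPH arrays higher. That call ended when BPL replicates 1 and 2 were both left out (0.98, limma adjusted p = 0.16) and when any single array other than BPL replicate 2 was (limma adjusted p of 0.058 to 0.13), and with no filter (limma adjusted p = 0.080). Mmp14, a membrane-bound collagenase, had 0.15 ± 0.14, and Mmp2 was too dim to be tested on both probe sets.

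No gene passed among 14 tested matrix receptors (median 0.20), 14 genes of the TGF-beta axis (median 0.13) and 15 other matrix proteins (median 0.09). In these lists limma gave 3, 2 and 4 genes with an unadjusted p under 0.05. These were 21.4%, 14.3% and 26.7% of the genes tested, against 20.6% of all tested probe sets. The stricter filter and the trended and robust variance each called 1 matrix receptor. Leaving out BPL replicate 1 gave 1 call in the TGF-beta axis. The laminin-binding integrin chains Itga6 and Itga3 had 0.70 ± 0.17 (limma adjusted p = 0.062) and 0.70 ± 0.18 (0.069), and are named because of these values. Ccn2, the connective tissue growth factor, had 1667, 2331 and 3559 in BPL and 3754, 2199 and 2578 in BPH, with overlapping groups. The difference was 0.19 ± 0.28 (limma adjusted p = 0.74). Its sign turned without BPL replicate 1, without BPH replicate 1 and without BPL replicates 1 and 2. Tgfb1 was too dim to be tested.

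**Figure D4:**
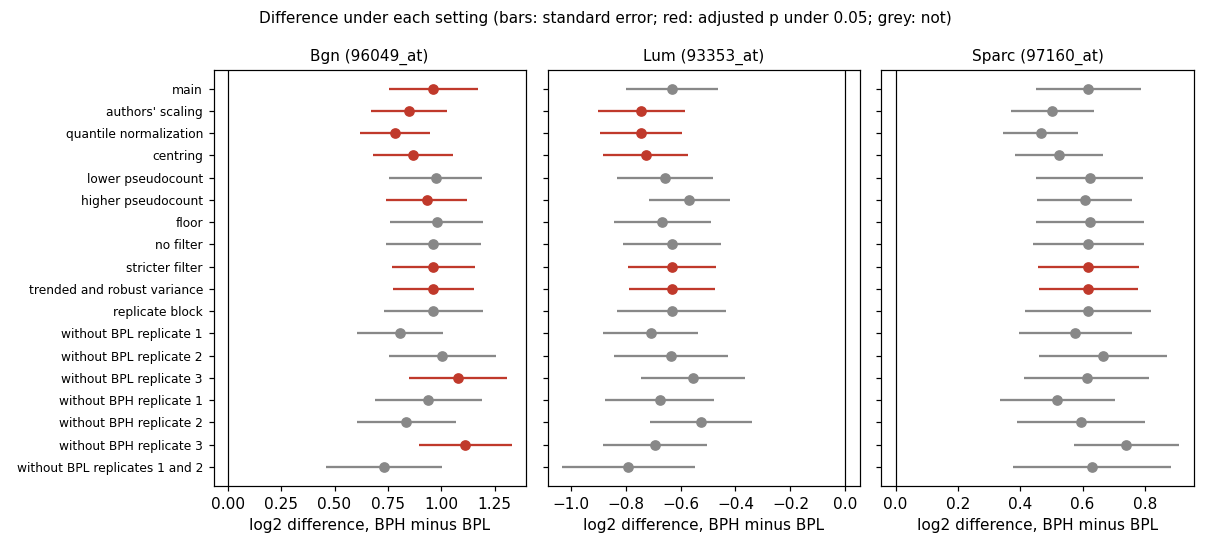
Log2 difference (BPH minus BPL) with standard errors for Bgn, Lum and Sparc in the reported setting (main) and 17 alternatives, red where the limma adjusted p was under 0.05. Bgn stayed positive and Lum negative in all of them, while the call came and went.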

How the data were processed

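Total RNA of adrenal glands was biotin-labelled and hybridised to Affymetrix mouse arrays, 1 per sample, per the labels' protocols. The deposited values are linear signal intensities, for which the submitters' processing notes name MAS5. The sources used here give neither its version nor its settings. Trimmed by 2% at both ends, every array had a mean of 2501.34 to 2501.53.

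The members, roles, lists and naming rule were chosen with earlier results of these data known. Symbols came from the platform annotation, from the 10833 probe sets with 1 symbol (396 had several and 1193 none), and all 52 member symbols were in the RefSeq gene table of GRCm38.p6. No build is stated for the array table.

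The 66 control probe sets were left out. Arrays, whose medians ran from 945 to 1144, were brought to a common median of 1040. Tests used log2(signal + 203), 203 being the 20th percentile. The lowest 40% by mean were not tested. limma 3.58.1 (R 4.3.3; lmFit, eBayes, 2-sided, 4 residual and 4.50 prior degrees of freedom, Benjamini-Hochberg over 7453 probe sets) compared strains, and was tested on simulated data. Companion lists used 1 probe set per gene, the brightest. Full values were given for called members and the extremes of each role, for up to 3 called genes of each companion list per direction, and for Serpinh1, Lox, Mmp2, Tgfb1 and Ccn2 (Ctgf) where tested. Thbs1 was not analysed here. Alternatives were the authors' scaling, quantile normalization, centring, other pseudocounts, a floor, other filters, another variance model, a replicate block and arrays left out. Any 2 arrays had at most 1 value in common. The number of arrays limits the precision.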

Additional observations from a re-analysis of the deposited data

How the results depend on the processing

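Bgn stayed positive and Lum negative under all 17 alternatives. The members' median, 0.11, was 0.0068 with the authors' scaling, 0.015 after quantile normalization, 0.017 after centring and -0.025 with no filter, where 76 probe sets entered. The Lum call appeared under those 3 scalings, giving 1 member lower. With the stricter filter and with a trended and robust variance 2 members were called higher (Bgn and Sparc) and 1 lower (Lum). With the lower pseudocount, the floor and no filter 0 members were called by limma in the higher direction. Leaving out each array gave 0 to 1 members higher, 0 lower and medians of 0.036 to 0.112, with 101 to 375 calls over all probe sets (81 to 283 higher, 20 to 92 lower). Without BPL replicates 1 and 2, where the lone BPL array is assumed to vary like BPH, there were 87 calls (77 higher, 10 lower), 0 members and a members' median of 0.069. Ccn2 was -0.34 there, and -0.052 to 0.45 when single arrays were left out. With no filter there were 127 calls (106 higher, 21 lower). Calls were 77.5% higher in the reported setting, 66.3% with the authors' scaling, 67.4% after quantile normalization and 69.1% after centring. The scalings moved the median of all probe sets from 0.08 to -0.02, 0.00 and -0.01.

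With the replicate number as a block, 239 probe sets and 0 members were called (Bgn adjusted p = 0.070). Deviations of same-numbered arrays correlated at -0.06, -0.05 and -0.18, and 0 of 6 arrays matched its own number best, so the numbers were not taken as pairs. The cause of the lost calls was not tested. Signals near the pseudocount limit what the 30 dim members can show.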

Other observations

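Among the 30 dim member probe sets, which were not tested, 2 had groups that did not overlap (6.67%, against 11.8% of all 4969 untested probe sets). Col19a1, a minor fibril-associated collagen, had signals of 642, 482 and 511 in BPL and of 335, 162 and 425 in BPH. Lamb3 on probe set 92759_at had 152, 187 and 165 in BPL and 132, 117 and 144 in BPH, all under the pseudocount of 203. The crosslinking enzyme Lox, dim as well, had 152, 139 and 56.5 in BPL and 523, 342 and 457 in BPH on probe set 160095_at, and overlapping groups on 161177_f_at.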
